A study of Rattus norvegicus with 18 samples.

Results

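The genes described here are 10 activity-regulated genes of the brain: the transcription factor genes Egr1, Egr2, Egr3, Egr4, Npas4, Nr4a1, Nr4a2 and Nr4a3, and the synaptic effector genes Arc and Nptx2. They were taken by symbol from a table of 17455 genes, whatever their values. All 10 were present and all 10 passed the filter on low counts. RNA-seq covered 18 libraries of left hippocampus, all from Sprague-Dawley rats that were adult and male, and the animals belonged to 2 models of acquired epilepsy. In the kainic acid (KA) model, animals with implanted electrodes were given rising amounts of systemic kainic acid, a glutamate receptor agonist, until status epilepticus set in. The kindling (KI) animals had hippocampal electrodes and were stimulated every day until they were kindled. The groups were KA 3 Class V (n = 3), KA sham (n = 7), KI 3 Class V (n = 4) and KI sham (n = 4). What 3 Class V denotes and what the shams received are not given further in the sources used here. Tissue was taken 24 hours after the last seizure. No transgene or drug other than kainic acid is named.

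Immediate early genes are transcribed within minutes of synaptic activity, without new protein synthesis, when calcium and MAP kinase signals reach CREB and serum response factor at their promoters. Their transcripts are short-lived, so in the hippocampus they are known as markers of recent neuronal firing and rise sharply and briefly after a seizure. EGR proteins are zinc finger factors, NR4A proteins are orphan nuclear receptors and NPAS4 is a bHLH-PAS factor tuned to calcium entry. ARC binds the endocytic machinery at the synapse and removes AMPA receptors, while NPTX2, a secreted pentraxin, clusters AMPA receptors on interneurons.

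Total counts were between 30925368 and 49943021 per library. Levels are given as CPM (TMM-scaled counts per unit of library size) and are compared only within a gene, since no transcript lengths were used. Counting error is small for most of the genes, but Egr2 was read with 16 to 197 counts per library and Npas4 with 18 to 115. The label of hippocampus was checked against markers. Summed CA pyramidal cell markers (5 of 5 detected, though Spink8 reached only 0.380 CPM) lay between 384 and 1065 CPM. Of the 5 dentate granule cell markers, 4 were in the table and none of these was at 0 in a whole group, though Tdo2 reached only 0.15 CPM and was under the filter. Choroid plexus markers were uneven between the shams. Their sums reached 606 CPM in KA sham (median 28.1) and 940 CPM in KI sham (median 33.4). The highest sums were 37.1 CPM in KA 3 Class V and 29.4 CPM in KI 3 Class V. Summed thalamus markers lay between 31.0 and 94.2 CPM and striatum markers between 131 and 224 CPM. The part of such tissue in the levels of the 10 genes was not tested. KI 3 Class V 1 (16.3%), KI sham 2 (16.4%) and KA sham 4 (9.67%) had large shares of counts on ribosomal RNA-like genes, and the remaining 15 libraries had at most 2.0%. In whole tissue, fewer cells of a type and less RNA per cell cannot be told apart.

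Among the 10 genes, Egr2 alone was called in the KA model, and 24 hours after the last seizure it was higher in every KA 3 Class V library than in any KA sham. Egr2 encodes a zinc finger factor that acts in long-term potentiation and, outside neurons, in Schwann cells and myeloid cells. It stood at 3.72, 3.16 and 4.98 CPM in KA 3 Class V, against a lowest value of 0.849, a median of 1.22 and a highest of 2.10 CPM in the 7 KA shams. The 3 libraries of KA 3 Class V are all high and the groups do not overlap. The means were 3.95 ± 0.931 CPM in KA 3 Class V (SD, n = 3) and 1.35 ± 0.479 CPM in KA sham (SD, n = 7). In log2 the change was 1.55 ± 0.30 (SE, edgeR adjusted p = 0.0357), a fold of 2.93. In this comparison 23 of 13338 genes were called, or 0.172%, all of them higher, and groups that do not overlap occurred in 5.65% of genes, with KA 3 Class V on top in 2.95%. The KA call for Egr2 ended in 8 of the 18 fits with 1 library left out. These were the fits lacking any of the 3 KA 3 Class V libraries, KA shams 2, 3, 5 and 7, and KI 3 Class V 3, with an adjusted p of 0.342 without KA 3 Class V 3 and 0.0524 to 0.0957 without the others. It also ended when the KA libraries were fitted alone (edgeR adjusted p = 0.0703). The log2 change stayed between 1.34 and 1.69 over these 18 fits.

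In the KI model Egr2 lay on the other side of its shams. It stood at 0.504, 1.23, 0.676 and 0.496 CPM in KI 3 Class V, against 1.63, 0.988, 1.16 and 1.66 CPM in KI sham. Of the KI 3 Class V libraries, 3 lie below every KI sham and KI 3 Class V 2 lies within the sham range. The log2 change was −0.90 ± 0.34 and did not pass over all genes (edgeR adjusted p = 0.0798), while DESeq2 (adjusted p = 0.0465) and limma-voom (adjusted p = 0.0455) called it lower. Over all genes in KI, DESeq2 called 22.2% and limma-voom called 55.1%, so that a call by limma-voom was the more common case there. The KA change of Egr2 minus its KI change was 2.45 ± 0.45 in log2 (edgeR adjusted p = 0.0139), in a comparison that called 3.80% of genes, 3.15% with a positive and 0.652% with a negative difference. That call ended without KA 3 Class V 3 (2.24, edgeR adjusted p = 0.0518) and not without any other single library. By mean level the order was KA 3 Class V, KI sham, KA sham and KI 3 Class V. The step between KA 3 Class V and KI sham was beyond the larger SD with no overlap. KI sham and KA sham did not differ beyond their spread, and the step between KA sham and KI 3 Class V exceeded the larger SD although their ranges overlap.

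Summed marker levels of other cell types are given beside Egr2, without a test of the sums. The summed level of the 5 microglia markers, none of them at 0 in any group, was 537 to 781 CPM in KA 3 Class V, 225 to 547 CPM in KA sham, 253 to 268 CPM in KI 3 Class V and 239 to 583 CPM in KI sham. The KA ranges overlap, and the KI 3 Class V range lies inside that of KI sham. Singly, all 5 had positive changes in KA (median log2 change 0.71) and edgeR called 0. In KI all 5 had negative changes (median −0.70) and edgeR called 1, against 5.25% of all genes called lower. For KA minus KI all 5 were positive (median 1.36) and edgeR called 3, against 3.15% of all genes. The 5 astrocyte markers summed to 9663 to 11935 CPM in KA 3 Class V and 3812 to 7118 CPM in KA sham, and to 4990 to 6544 CPM in KI 3 Class V and 3473 to 6535 CPM in KI sham. The KA ranges are apart and the KI ranges overlap. Gfap made up most of the KA 3 Class V sums, at 7391, 9278 and 8669 CPM against 2264 to 5535 CPM in KA sham. Aqp4 and Gja1 also lay above every KA sham, while Slc1a2 and Aldh1l1 lay inside the range of the KA shams. Singly, 4 of the 5 astrocyte markers had positive changes in KA and edgeR called 1 higher, against 0.172% of all genes. The 5 oligodendrocyte markers summed to 12274 to 12509 CPM in KA 3 Class V and 11251 to 33050 CPM in KA sham, and to 8863 to 12627 CPM in KI 3 Class V and 14430 to 19306 CPM in KI sham, where the ranges are apart. The part of these cell types in the level of Egr2 was not tested.

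**Figure D1:**
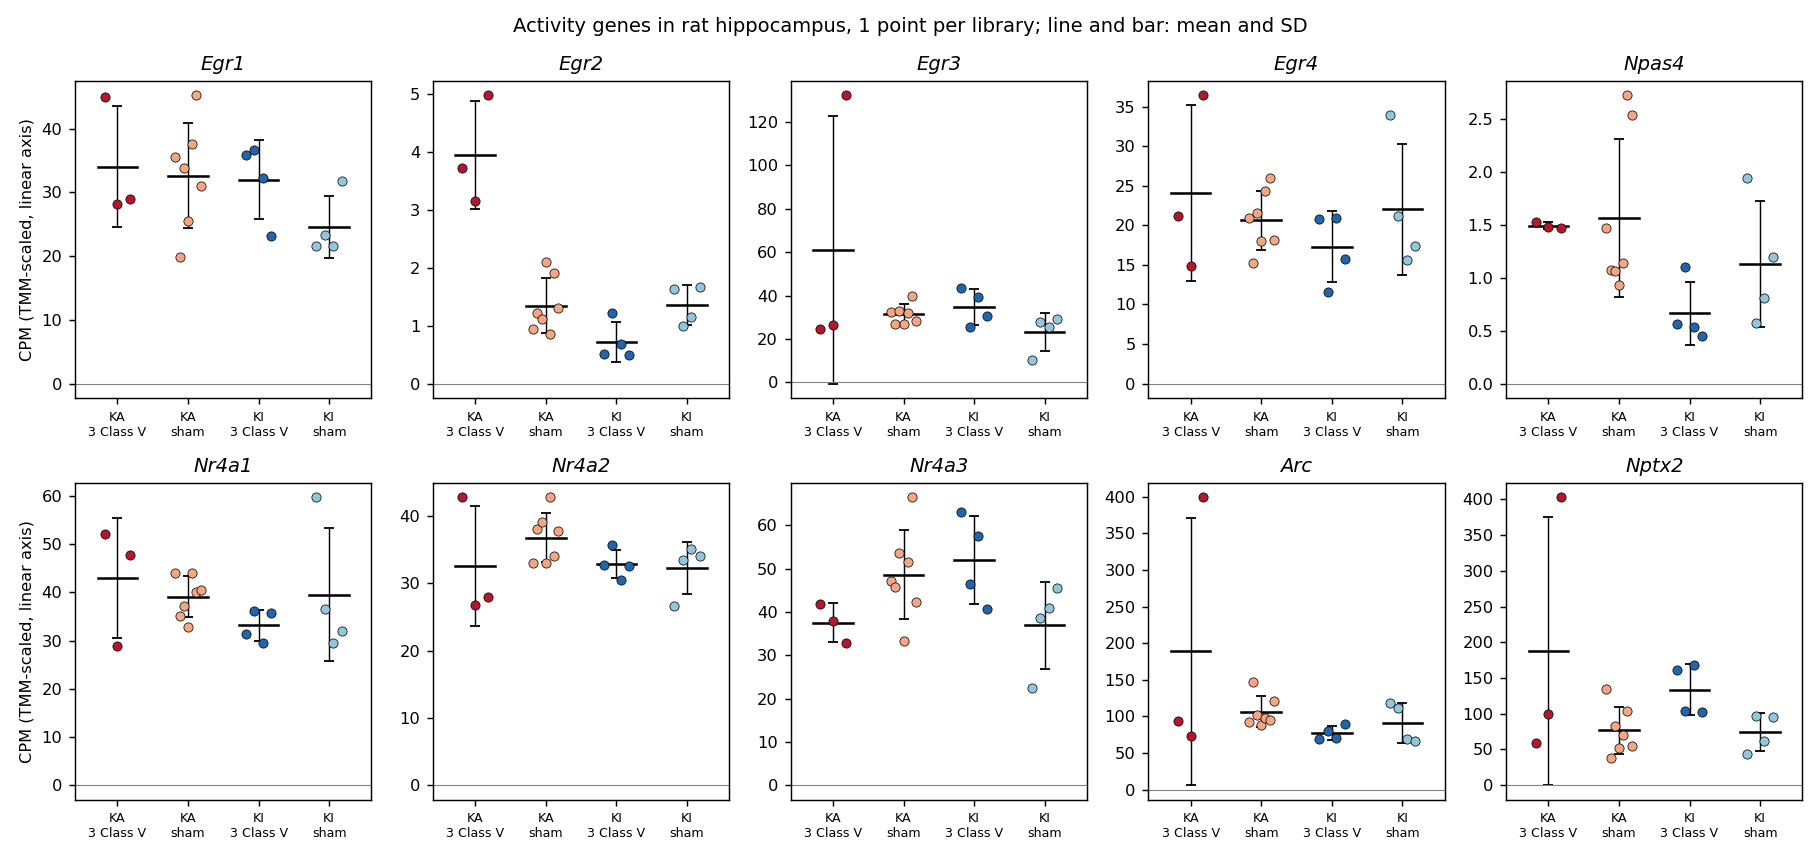
CPM (vertical axes, linear, TMM-scaled) of the 10 genes in each library, with 1 point per library and groups along the horizontal axis; the line and bar give the mean and SD. The 3 KA 3 Class V points of Egr2 (3.16 to 4.98 CPM) lie above all 7 KA shams, and 1 KA 3 Class V library sets the means of Egr3, Arc and Nptx2.

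Egr1, the best known member of the family and a marker used to map active neurons, did not pass in either model. It stood at 45.0, 28.2 and 29.0 CPM in KA 3 Class V, against 19.9 (lowest), 33.9 (median) and 45.2 CPM (highest) in KA sham. The 3 values lie inside the sham range, and the log2 change was 0.06 ± 0.22 (edgeR adjusted p = 0.960). Among KI libraries it stood at 35.9, 36.7, 32.3 and 23.1 CPM in KI 3 Class V, against 21.5, 23.3, 21.7 and 31.8 CPM in KI sham. There 3 libraries of KI 3 Class V lie above every sham and the other lies within the sham range. The log2 change was 0.38 ± 0.23 (edgeR adjusted p = 0.231), and only limma-voom, which called 55.1% of genes in KI, called it (0.50, adjusted p = 0.0214).

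The promoters of Egr1 and Egr2 are shown because they hold the serum response element, through which activity is known to reach immediate early genes. Those of Egr4 and Nptx2 are shown beside them as windows without an exact match to it. Sequences of 300 bases (250 before and 50 after the transcript start) came from RefSeq, build GRCr8, for 7 of the 10 genes. These were matched by symbol: Egr1, Egr2, Egr4, Npas4, Nr4a1, Nr4a2 and Nptx2. For Egr2, Npas4, Nr4a1 and Nr4a2 the start used lies inside the outer span of the gene, so other starts exist. Capitals mark TGACG, the core of the cAMP response element, or its reverse complement, the serum response element, and the EGR site GCGNGGGCG or its reverse complement. The serum response element was searched as CCWWWWWWGG, where W is A or T, and near matches were not counted.
Egr1, chr18:26736828-26737127, plus strand: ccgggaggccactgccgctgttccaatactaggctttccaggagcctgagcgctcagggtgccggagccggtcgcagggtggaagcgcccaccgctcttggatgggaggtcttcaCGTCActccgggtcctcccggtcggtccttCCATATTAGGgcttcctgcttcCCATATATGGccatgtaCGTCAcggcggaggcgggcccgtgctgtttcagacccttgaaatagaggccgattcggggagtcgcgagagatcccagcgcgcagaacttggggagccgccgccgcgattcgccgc
Egr2, chr20:21054392-21054691, minus strand: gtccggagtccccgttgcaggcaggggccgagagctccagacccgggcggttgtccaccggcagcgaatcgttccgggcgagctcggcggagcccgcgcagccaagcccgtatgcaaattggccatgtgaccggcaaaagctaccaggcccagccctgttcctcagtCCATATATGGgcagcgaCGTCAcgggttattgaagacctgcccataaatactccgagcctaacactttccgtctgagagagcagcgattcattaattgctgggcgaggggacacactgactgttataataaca
Egr4, chr4:119607768-119608067, minus strand: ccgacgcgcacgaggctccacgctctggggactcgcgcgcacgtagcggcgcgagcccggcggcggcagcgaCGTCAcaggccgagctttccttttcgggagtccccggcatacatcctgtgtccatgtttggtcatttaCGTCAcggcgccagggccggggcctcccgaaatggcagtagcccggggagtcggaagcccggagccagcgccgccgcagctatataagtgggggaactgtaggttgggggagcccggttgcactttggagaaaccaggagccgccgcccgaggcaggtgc
Nptx2, chr12:15161996-15162295, minus strand: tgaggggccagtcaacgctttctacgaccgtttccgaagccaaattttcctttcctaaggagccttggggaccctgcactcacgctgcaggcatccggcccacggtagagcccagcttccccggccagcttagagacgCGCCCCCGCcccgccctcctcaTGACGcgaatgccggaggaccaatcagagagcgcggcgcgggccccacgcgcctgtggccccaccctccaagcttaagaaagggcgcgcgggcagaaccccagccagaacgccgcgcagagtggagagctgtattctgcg
Both strands were searched in 33469 rat promoters of this length. The serum response element was found in Egr1 (2 matches) and Egr2 (1 match), that is in 2 of the 7, against 1.64% of all promoters. The core was found in 6 of the 7, all but Npas4, against 21.2% of promoters, with 4 matches in Nr4a1, 2 each in Egr1 and Egr4 and 1 each in Egr2, Nr4a2 and Nptx2. The EGR site was found in Nptx2 and Nr4a1, against 4.98% of promoters. The full element TGACGTCA, which contains the core, was in 0 of the 7 and in 1.83% of promoters, and the NR4A site AAAGGTCA was in 0 of the 7 and in 1.43% of promoters. These matches describe the letters of these windows and do not show binding.

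Egr3, which is induced together with Egr1 in many neurons and acts on GABA receptor genes, was high in a single KA library. It stood at 24.8, 26.3 and 132 CPM in KA 3 Class V, against 26.8 (lowest), 31.8 (median) and 40.0 CPM (highest) in KA sham. KA 3 Class V 3 lies far above the shams, and the other two lie below every KA sham. The log2 change was 0.96 ± 0.39 (edgeR adjusted p = 0.379), and −0.31 without KA 3 Class V 3 (edgeR adjusted p = 0.943). In the KI model Egr3 stood at 43.6, 25.3, 39.3 and 30.6 CPM in KI 3 Class V, against 10.3, 28.0, 25.7 and 29.4 CPM in KI sham. KI sham 1 is the lowest of all 18 libraries, and the log2 change of 0.57 ± 0.42 (edgeR adjusted p = 0.328) was 0.32 without it.

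Egr4, a further zinc finger factor of the family, did not pass in either model. It stood at 21.1, 14.8 and 36.4 CPM in KA 3 Class V, against 15.2 (lowest), 21 (median) and 25.9 CPM (highest) in KA sham. KA 3 Class V 3 is again the highest of all 18 libraries, and the log2 change was 0.22 ± 0.27 (edgeR adjusted p = 0.827) with it and −0.21 without it. In the KI model Egr4 stood at 20.8, 11.6, 21 and 15.7 CPM in KI 3 Class V, against 33.9, 21.2, 15.6 and 17.3 CPM in KI sham. The groups overlap, and the log2 change was −0.35 ± 0.28 (edgeR adjusted p = 0.366), or −0.06 without KI sham 1.

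Npas4, whose protein regulates inhibitory synapses and is known to respond to calcium entry rather than to growth factors, was read with few counts in all groups. It stood at 1.53, 1.48 and 1.47 CPM in KA 3 Class V, against 0.933 (lowest), 1.14 (median) and 2.72 CPM (highest) in KA sham. The 3 values are nearly equal and lie inside the sham range, also in the library where Egr3 was high. The log2 change was −0.07 ± 0.39 (edgeR adjusted p = 0.973). Among KI libraries it stood at 0.567, 1.10, 0.535 and 0.449 CPM in KI 3 Class V, against 1.94, 0.574, 0.811 and 1.19 CPM in KI sham. The log2 change of −0.75 ± 0.42 did not pass (edgeR adjusted p = 0.203), and was −0.38 without KI sham 1. The 18 to 44 counts behind each KI 3 Class V value limit its precision.

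The Nr4a genes encode orphan receptors that bind DNA without a known ligand, and none passed in either model. Nr4a1 (Nur77) stood at 52.1, 28.9 and 47.8 CPM in KA 3 Class V, against 32.8 (lowest), 40.0 (median) and 44.0 CPM (highest) in KA sham. Of these, 2 values lie above and 1 lies below all the shams, so the libraries of KA 3 Class V differ more among themselves (SD 12.4 CPM) than the shams do (SD 4.27 CPM). Nr4a2 (Nurr1), which is also needed for dopamine neurons, stood at 42.8, 26.8 and 28.0 CPM in KA 3 Class V, against 33.0 (lowest), 37.8 (median) and 42.8 CPM (highest) in KA sham. Of the 3 libraries, 2 lie below every sham and KA 3 Class V 1 equals the highest sham at this rounding. Nr4a3 (NOR-1) stood at 41.8, 37.9 and 32.8 CPM in KA 3 Class V, against 33.3 (lowest), 47.1 (median) and 66.5 CPM (highest) in KA sham. Its 3 libraries lie below the sham median. The KA log2 changes were 0.14 ± 0.20 for Nr4a1, −0.18 ± 0.14 for Nr4a2 and −0.38 ± 0.21 for Nr4a3, with edgeR adjusted p of 0.864, 0.697 and 0.589.

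In the KI model Nr4a3 was the Nr4a gene farthest from its shams. It stood at 63.1, 46.5, 57.6 and 40.7 CPM in KI 3 Class V, against 22.5, 38.7, 41.0 and 45.5 CPM in KI sham. The groups overlap, since KI 3 Class V 4 lies below KI sham 3 and 4, and KI sham 1 is again the lowest of all 18. The log2 change was 0.49 ± 0.21 (edgeR adjusted p = 0.114), and of the 3 tools only limma-voom, with its 55.1% of all genes, called it (0.53, adjusted p = 0.00684). It was 0.31 without KI sham 1, and 0.74 without KI sham 3 and 4 together, where edgeR called it (adjusted p = 0.0402). That fit called 3740 of 13381 genes in KI. It left out the KI shams with the highest Nr4a3 (41.0 and 45.5 CPM) and kept KI sham 1. Nr4a1 ranged over 29.5 to 36.1 CPM in KI 3 Class V and 29.6 to 59.7 CPM in KI sham, and Nr4a2 over 30.5 to 35.7 CPM in KI 3 Class V and 26.6 to 35.1 CPM in KI sham. Their log2 changes were −0.25 ± 0.20 and 0.03 ± 0.14 (edgeR adjusted p = 0.369 and 0.905). The KA change of Nr4a3 minus its KI change was −0.87 ± 0.30 and did not pass with edgeR (adjusted p = 0.119), while limma-voom, which called 35.8% of all genes in this comparison, called it (−0.92, adjusted p = 0.00329).

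Arc and Nptx2, the effector genes, were, like Egr3, high in a single KA library. Arc stood at 93.4, 73.3 and 399 CPM in KA 3 Class V, against 88.3 (lowest), 98.6 (median) and 148 CPM (highest) in KA sham. Nptx2 stood at 59.6, 99.7 and 403 CPM in KA 3 Class V, against 38.4 (lowest), 69.6 (median) and 134 CPM (highest) in KA sham. For both genes KA 3 Class V 3 lies far above every sham. The other KA 3 Class V values lie inside the sham range, except that of Arc in KA 3 Class V 2, which lies below it. The KA log2 change was 0.83 ± 0.36 for Arc (edgeR adjusted p = 0.426) and 1.29 ± 0.45 for Nptx2 (edgeR adjusted p = 0.265). Without KA 3 Class V 3 the changes were −0.36 for Arc and 0.05 for Nptx2 (edgeR adjusted p = 0.942 and 0.998).

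In the KI model Nptx2 was apart from its shams and Arc was not. Nptx2 stood at 161, 104, 167 and 103 CPM in KI 3 Class V, against 43.4, 97.4, 61.8 and 95.3 CPM in KI sham. Every KI 3 Class V library lies above every KI sham, but groups that do not overlap occurred in 20.2% of all genes, 12.1% in this direction and 8.07% in the other. The sum of the 5 interneuron markers, none at 0, was likewise apart, at 598 to 648 CPM in KI 3 Class V and 342 to 592 CPM in KI sham. Singly, 3 of these 5 had positive and 2 had negative changes in KI. Of the 5, edgeR called 1 higher, against 4.74% of all genes. The sum of the oligodendrocyte markers was apart in the other direction. The part of these in the level of Nptx2 was not tested. The log2 change was 0.84 ± 0.48 (edgeR adjusted p = 0.209), and limma-voom called it (0.85, adjusted p = 0.0469), as it did 55.1% of all genes. Arc stood at 68.9, 80.8, 70.7 and 90.4 CPM in KI 3 Class V, against 119, 112, 69.8 and 66.0 CPM in KI sham. The groups overlap, with a log2 change of −0.24 ± 0.38 (edgeR adjusted p = 0.662).

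**Figure D2:**
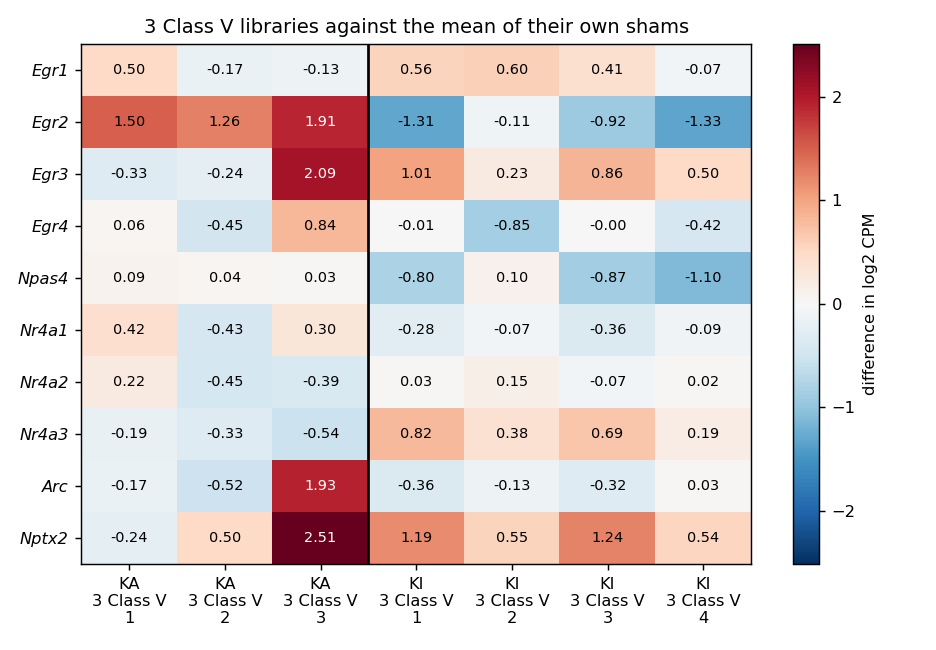
Difference in log2 CPM (colour and printed value) between each 3 Class V library and the mean of its own sham group, for the 10 genes down the page; red is higher and blue lower than the shams. In the column of KA 3 Class V 3, Egr3, Arc and Nptx2 stand 1.93 to 2.51 above their shams while Npas4 stands at 0.03 and Nr4a3 at −0.54.

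KA 3 Class V 3 was the highest of the 18 libraries for 5 of the 10 genes, Egr2, Egr3, Egr4, Arc and Nptx2, and for 7.05% of all genes tested. Egr3 was 3.03 times, Arc 2.70 times and Nptx2 2.41 times the next highest of the 18 libraries. That library exceeded all others at least 2-fold for these 3 genes, against 0.510% of all genes tested. In the same library Nr4a1 (47.8 CPM) lay 0.30 above its sham mean in log2 CPM and above every KA sham, while Egr1 (29.0 CPM), Nr4a2 (28.0 CPM), Nr4a3 (32.8 CPM) and Npas4 (1.47 CPM) lay between 0.54 below and 0.03 above theirs. This library was singled out after its values were seen. Its summed dentate granule cell markers (190 CPM) and CA pyramidal cell markers (659 CPM) were the highest of the 3 KA 3 Class V libraries (lowest 129 and 384 CPM) and lay inside the ranges of the KA shams (130 to 202 and 601 to 960 CPM). The granule cell marker C1ql2 stood at 33.2, 48.0 and 112 CPM in KA 3 Class V, against 54.2 to 91.7 CPM in KA sham, so that it was above every sham in this library. The other granule cell markers past the filter did not share this. Prox1 stood at 29.9, 38.6 and 21.6 CPM in KA 3 Class V, against 13.7 to 46.4 CPM in KA sham. Calb1 stood at 65.3, 51.0 and 56.4 CPM, against 49.6 to 72.8 CPM. Their part in the high values of Egr3, Arc and Nptx2 was not tested. Its microglia and astrocyte markers summed to 627 and 10732 CPM, between those of the other 2 KA 3 Class V libraries. The lowest values were spread otherwise: KI sham 1 was the lowest library for Egr3, Nr4a2 and Nr4a3, and for 24.6% of all genes.

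Counted over the 10 genes, 1 was called higher and 0 lower in KA, with 7 positive changes and a median log2 change of 0.18, against −0.01 over all genes. At an unadjusted p under 0.05 there were 4 of the 10 (Egr2, Egr3, Arc and Nptx2), against 9.93% of all genes, and the changes of Egr3, Arc and Nptx2 rest on KA 3 Class V 3. Without that library the median KA change of the 10 was −0.08, against −0.02 over all genes, with 4 positive changes and 0 called by edgeR. DESeq2 and limma-voom each called 1 of the 10 in KA, Egr2, against 1.90% and 5.44% of all genes. In KI, edgeR called 0 of the 10, while it called 9.99% of all genes, 4.74% higher and 5.25% lower. The median change of the 10 in KI was −0.11, against −0.04 over all genes. At an unadjusted p under 0.05 there were 2 of the 10 in KI (Egr2 and Nr4a3), against 35.4% of all genes. DESeq2 called 1 of the 10 (Egr2), against 22.2% of all genes, and limma-voom called 4 (Egr1, Egr2, Nr4a3 and Nptx2), against 55.1%. Each of these KI shares of the 10 is below that of all genes. They rest on few genes and on the same libraries, and the difference from all genes was not tested. For the difference between the models edgeR called 1 of the 10 (Egr2), against 3.80% of all genes, with a median of 0.42 against 0.01 over all genes. The sign of this median was not stable. It was −0.11 without KA 3 Class V 3, where edgeR called 0 of the 10, and −0.15 with limma-voom, with 4 positive differences in each.

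**Figure D3:**
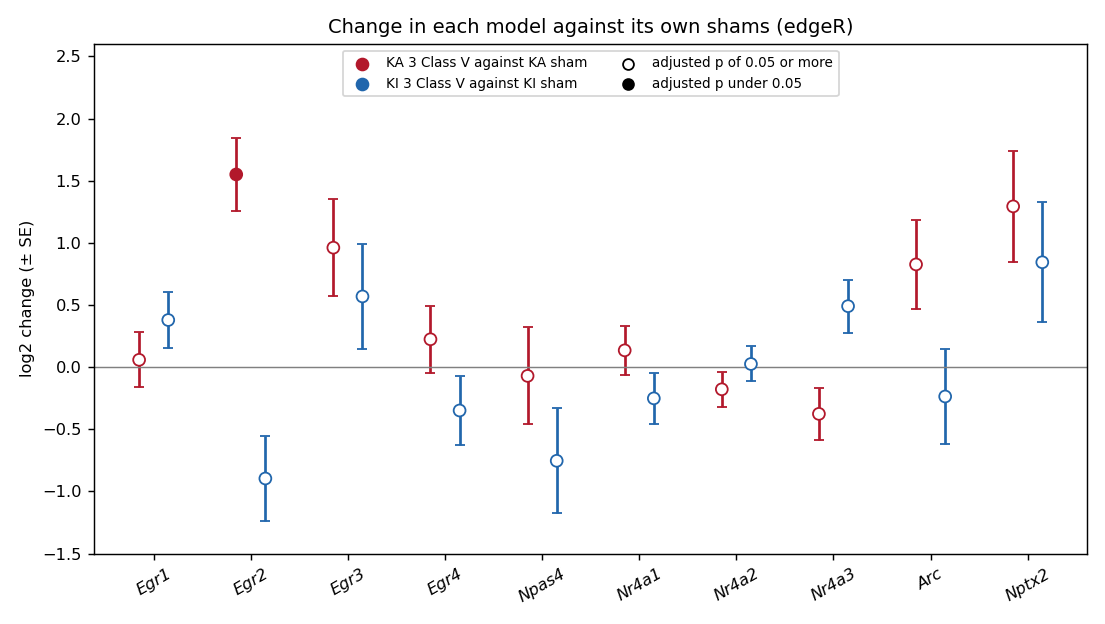
Log2 change (vertical axis, points, with SE as bars) of each gene in KA 3 Class V against KA sham (red) and KI 3 Class V against KI sham (blue); filled points passed an adjusted p of 0.05 and open points did not. Egr2 is the only filled point, at 1.55 in KA, and its KI value is −0.90.

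Between KA sham and KI sham edgeR, DESeq2 and limma-voom each called 0 of the 10, against 0.0075%, 0.0825% and 3.08% of all genes. At an unadjusted p under 0.05 there were 0 of the 10 with edgeR, 2 with DESeq2 and 3 with limma-voom, against 8.63%, 10.9% and 31.6% of all genes. The differences of KA sham minus KI sham were between −0.09 (Egr4) and 0.48 (Npas4) in log2, and 0.41 ± 0.21 for Egr1 (edgeR adjusted p = 0.564). Ranges overlapped between every pair of groups next to each other in mean level, except for the step of Egr2 already given. The difference between neighbours exceeded the larger SD for Egr1 between KI 3 Class V and KI sham, for Nr4a1 and Nr4a2 between KA sham and KI 3 Class V, for Nr4a3 between KA 3 Class V and KA sham, and for Nptx2 between KI 3 Class V and KA sham.

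**Figure D4:**
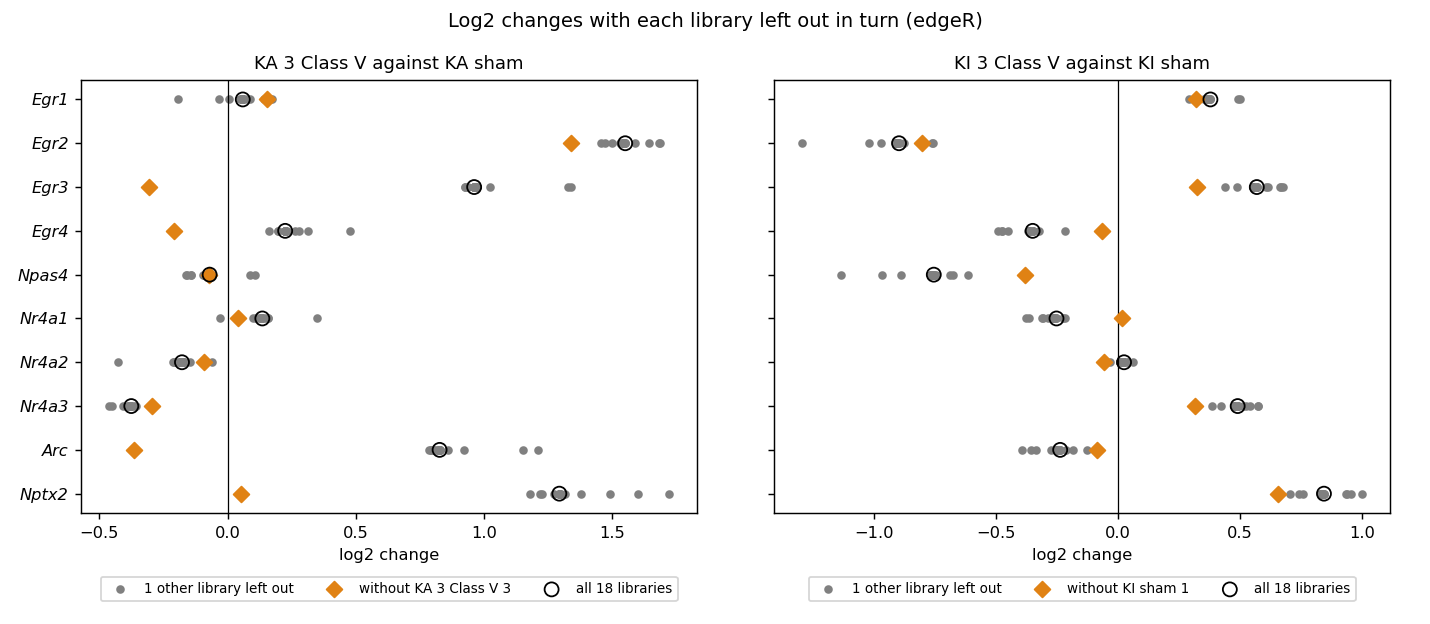
Log2 change (horizontal axes) of each gene in the KA model (left) and the KI model (right) with all 18 libraries (open circles) and with each library left out in turn (grey points); orange diamonds leave out KA 3 Class V 3 on the left and KI sham 1 on the right. On the left the diamonds of Egr3 (−0.31), Egr4 (−0.21) and Arc (−0.36) cross 0, and that of Nptx2 is at 0.05, while Egr2 stays at 1.34.

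Of 25 other genes induced by activity, edgeR called 1 higher in KA, Fos, and 24 did not pass, with a median log2 change of 0.44 against −0.01 over all genes. At an unadjusted p under 0.05 there were 12 of the 25 with edgeR, against 9.93% of all genes. DESeq2 called 3 (Fos, Fosb and Gadd45b), against 1.90%, and limma-voom called 4 (Fos, Fosb, Junb and Nfil3), against 5.44%. The edgeR calls over all genes were 0.172% in KA, and 4.74% higher and 5.25% lower in KI. In KI, Ptgs2 (prostaglandin synthase) rose by 1.77 ± 0.52 in log2, Fos fell by 0.82 and Ier2 (a nuclear early response protein) fell by 0.66, and 22 did not pass (edgeR adjusted p = 0.0448, 0.0301 and 0.0275). Fos, the partner of JUN in the AP-1 factor, stood at 17.5, 14.2 and 21.9 CPM in KA 3 Class V, against 5.89 (lowest), 6.98 (median) and 9.20 CPM (highest) in KA sham. It stood at 4.72, 5.99, 3.24 and 4.25 CPM in KI 3 Class V, against 10.2, 7.84, 6.73 and 7.35 CPM in KI sham. Its direction in each model is that of Egr2, and its KA change (1.34 ± 0.18, edgeR adjusted p = 0.00182) was called in all 18 fits with 1 library left out. The KA change exceeded the KI change for Fos (2.16 ± 0.27), Ier2 (0.99 ± 0.21) and the repressor gene Nfil3 (0.98 ± 0.27), with edgeR adjusted p of 0.00131, 0.0181 and 0.0473. Calls in this direction were 3 of the 25, against 3.15% of all genes.

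KA 3 Class V 3 was the highest library for 15 of these 25 genes as well, against 7.05% of all genes. It exceeded every other library at least 2-fold for Fosb, Gadd45b, Inhba and Plk3, against 0.510% of all genes. Inhba, which encodes an activin subunit, stood at 2.34, 2.39 and 20.5 CPM in KA 3 Class V, against 1.36 (lowest), 1.81 (median) and 4.03 CPM (highest) in KA sham. Without that library the median KA change of the 25 genes was 0.17.

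Among 19 measured upstream regulators edgeR called 0 in KA, with 3 at an unadjusted p under 0.05, while DESeq2 and limma-voom called 2 each. Over all genes in KA, 9.93% had an unadjusted p under 0.05 with edgeR, and DESeq2 and limma-voom called 1.90% and 5.44%. In KI 3 of the 19 rose and 1 fell, against 4.74% and 5.25% of all genes. Among those that rose were Mef2a (0.75 ± 0.22) and Elk1 (0.31 ± 0.09), which encode factors at activity-regulated promoters (edgeR adjusted p = 0.0418 and 0.0471). Mapk3, a MAP kinase gene, fell by 0.38 (edgeR adjusted p = 0.0463). Of 16 partners and co-repressors edgeR called 0 in KA, with 1 at an unadjusted p under 0.05, which DESeq2 and limma-voom called (Sh3gl3, an endophilin gene, lower). In KI 3 of the 16 rose, against 4.74% of all genes. These were Nptxr, the receptor-like partner of NPTX2 (1.16 ± 0.31), Arnt2, the partner of NPAS4 (0.58 ± 0.15), and the AMPA receptor gene Gria1 (0.94 ± 0.28), with edgeR adjusted p of 0.0360, 0.0322 and 0.0436. Nptxr stood at 3666, 2656, 3665 and 2544 CPM in KI 3 Class V, against 1426, 1324, 1246 and 1599 CPM in its shams, with no overlap between these groups. Such groups occurred in 20.2% of all genes in KI, and in 12.1% in this direction. In KA sham Nptxr ranged from 990 to 2933 CPM, which reaches into the KI 3 Class V range. The genes Nab1 and Nab2, co-repressors of EGR proteins, did not pass in either model, with log2 changes of 0.13 and 0.41 in KA and 0.14 and −0.08 in KI. None of the KI calls in this paragraph, nor those of Fos, Ier2 and Ptgs2, held without the 3 libraries rich in ribosomal RNA-like counts (edgeR adjusted p = 0.108 to 0.205) or with a ribosomal protein score as covariate (0.0656 to 0.195). Without the 3 libraries the changes stayed close in size, such as −0.85 for Fos, 1.78 for Ptgs2 and 1.05 for Nptxr. With the covariate some were smaller by over 1.5 times, at 1.11 for Ptgs2, 0.33 for Mef2a, −0.25 for Mapk3, 0.68 for Nptxr and 0.42 for Gria1. Each was also lost in 3 to 17 of the 18 fits with 1 library left out, among them KI 3 Class V 1, 2 and 3 each time. Over all genes, edgeR calls in KI fell from 1332 to 9 without any 1 of those 3 libraries. The losses in those fits are thus not particular to these genes. Of the KA minus KI calls, Rps6ka1, a kinase gene downstream of ERK (1.07 ± 0.23, edgeR adjusted p = 0.0193), and Ier2 were lost without KA 3 Class V 3, KI 3 Class V 1 or KI 3 Class V 3, Nfil3 in 15 of 18 such fits, and Fos in none.

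The genes with levels most like those of each member were found among 11412 genes by Pearson r of log2 CPM over all 18 libraries, which share depth, group and tissue composition. For Egr2 these were Fos (r = 0.90), the class II histocompatibility gene RT1-Db1 (r = 0.85) and the endosomal protease gene Ctse (r = 0.83). For deviations from group means these r were 0.47, 0.45 and 0.46. For Nptx2 they were the activin receptor gene Acvr1 (r = 0.96), the potassium channel gene Kcng1 (r = 0.95) and the protocadherin gene Pcdh8 (r = 0.95), with Acvr1 at 0.95 without KA 3 Class V 3. For Egr1 they were Lgi2, Kcnt1 and Syt2 (r = 0.91, 0.90 and 0.89), and for Nr4a3 Smim17, Htr1b and Adam11 (r = 0.92, 0.92 and 0.90). For Nr4a1 they were Clasrp, Stmn4 and Prss53, for Nr4a2 Gjb2, Satb1 and Abhd18, for Egr4 Zbtb17, Vwa1 and Sirt6, and for Npas4 Rbm5, Epha10 and Gfra2, with r between 0.67 and 0.84. The matches of Egr3 (Sox11, Gpatch2l and Arhgef7, r = 0.91, 0.91 and 0.90) and Arc (Phospho1, Trib2 and Plk3, r = 0.90, 0.87 and 0.86) changed place without KA 3 Class V 3, as did those of Egr4 (to places 22, 68 and 33) and Kcng1 for Nptx2 (to place 16). There Sox11 (r = 0.79) took place 1004 for Egr3, and Phospho1 (r = 0.72) took place 478 for Arc. Among the 10 genes themselves, Egr3 and Nptx2 were alike at r = 0.82 (Spearman rho 0.69, and r = 0.66 without KA 3 Class V 3), Egr4 and Nr4a1 at r = 0.67, and Npas4 and Egr2 at r = 0.62. Arc and Egr1 were at r = −0.19. Other pairs depended more on KA 3 Class V 3. Egr3 and Nr4a3 were at r = 0.35 with it and 0.91 without it (Spearman rho 0.53 and 0.78). Arc and Nptx2 were at r = 0.30 with it and −0.65 without it. KI sham 1 was the lowest library for both Egr3 and Nr4a3, and its part in their r was not tested.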

How the data were processed

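The authors deposited whole-number read counts by gene symbol, not normalized, for 18 libraries. Per the labels' protocols, RNA was extracted with the Qiagen AllPrep kit and NEBNext Ultra II was the library kit; the design text gives single-end reads of 110 bases. The tools named per the submitters' processing notes are HISAT2 and featureCounts (with Trimmomatic, DESeq2 and FastQC), and the build is rn6. The sources used here do not give the annotation, strand setting or treatment of multi-mapping reads, so overlapping or antisense genes may share counts. Columns were matched by library name, and 0 were left unmatched. The 10 genes and the gene lists were chosen with earlier results of these data known.

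The counts were tested in R 4.3.3 with edgeR 4.0.16 (TMM factors, filterByExpr, robust quasi-likelihood F test) over 13338 genes, all 18 libraries in 1 fit with 14 residual degrees of freedom. Two-sided p-values were adjusted by Benjamini and Hochberg's method across the genes tested, with a threshold of 0.05, and the SE is the absolute log2 change over the square root of F. The contrasts tested were each model against its sham, their difference, and the shams. The labels do not say which animal each library came from, and p-values measure only the spread between these libraries, which may be technical. Pairs within groups differed by more than counting error (36 pairs, chi-square per degree of freedom 19.9 to 586). The procedure was tested on simulated counts. Alternatives were DESeq2 1.42.0, limma-voom (limma 3.58.1) with quality weights, RLE factors, 2 other filters, each model alone, libraries left out, a ribosomal protein score as covariate and a replicate block. The rule for named genes took all 10 genes, list genes called in any contrast (1 of these is not reported here), and the 3 genes most like each of the 10 with mean log2 CPM of at least 1. The genes Inhba, Fosb, Gadd45b, Plk3, Nab1, Nab2, Sh3gl3, Junb, C1ql2, Prox1 and Calb1 were named after their values were seen. So were the astrocyte markers Gfap, Aqp4, Gja1, Slc1a2 and Aldh1l1.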

Additional observations from a re-analysis of the deposited data

Results flagged for a closer look

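Egr1 in KI sham 4 stood at 31.8 CPM, apart from the 21.5 to 23.3 CPM of the other 3 KI shams: the gap to the nearest of them was 0.832 of the range of the group. It was 1 such value among 30 groups of values looked at, and chance gives about 1 in 20. The log2 change of Egr1 in KI was 0.50 without that library, and was not called there.

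The change of Egr2 differed between the models, with a KA change minus KI change of 2.45 in log2 (edgeR adjusted p = 0.0139). In KA, 3 of 3 libraries lay above the highest sham, and in KI 3 of 4 lay below the lowest. Without KA 3 Class V 3 the difference was 2.24 and was not called (edgeR adjusted p = 0.0518).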

How the results depend on the processing

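Of the calls on the 10 genes, that of Egr2 between models was kept in all 9 alternatives other than leaving out 1 library, and that in KA in 8 of 10. The number of the 10 genes called in KA was 0 with each model fitted alone. In KI it was 1 with DESeq2, 4 with limma-voom and 1 without KI sham 3 and 4, and between models it was 2 with limma-voom. With 1 library left out these counts were 0 to 1 in KA, 0 in KI, 0 to 1 between models and 0 between shams.

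The number of all genes called moved far more. With DESeq2 it was 254 in KA, 2965 in KI, 1117 between models and 11 between shams, and with limma-voom 725, 7355, 4770 and 411. Without KI sham 3 and 4 it was 69 in KA, 3740 in KI and 625 between shams. With the ribosomal protein covariate it was 205 in KA, 105 in KI, 1025 between models and 6 between shams. It was 759 in KI with each model alone, and 17 in KI and 0 between shams without the 3 libraries rich in ribosomal RNA-like counts. With 1 library left out it was 9 to 110 in KA, 9 to 4297 in KI, 56 to 897 between models and 1 to 3 between shams. The causes were not tested.

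Same-numbered libraries did not deviate together (r −0.17 to 0.01, none matching its own number best), so no pairing by number was found. Deviations from the means of so few libraries cannot exclude one. With a replicate block 7 genes were called in KA, 189 in KI, 173 between models and 0 between shams, and of the 10 genes 0 in KA (Egr2 at 1.68, adjusted p = 0.361) and 1 between models. Fos in KA was not called with the block (adjusted p = 0.168).

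Directions that turned were all of changes not called. With limma-voom these were Egr1 (−0.0105), Egr4 (−0.16) and Npas4 (0.26) in KA, Nr4a2 in KI (−0.0776), and Egr3 (−0.48), Egr4 (−0.13) and Nptx2 (−0.47) between models. With the ribosomal protein covariate they were Egr1 (−0.0420), Nr4a2 (−0.00074) and Arc (0.15) in KI and Egr1 between models (0.0577). Egr1 was at −0.0098 in KA without the libraries rich in ribosomal RNA-like counts, and Npas4 at 0.35 in KA with the block. With 1 library left out the KA changes ran from −0.20 to 0.17 for Egr1, −0.31 to 1.34 for Egr3, −0.21 to 0.48 for Egr4, −0.16 to 0.11 for Npas4, −0.0302 to 0.35 for Nr4a1 and −0.36 to 1.21 for Arc. In KI they ran from −0.38 to 0.0184 for Nr4a1 and −0.0567 to 0.0633 for Nr4a2, and between models from −0.86 to 0.78 for Egr3, −0.11 to 1.46 for Arc and −0.78 to 0.89 for Nptx2. Low counts limit Egr2 and Npas4.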
